A study of Bos taurus with 12 samples.

Results

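The comparison described here sets muscle of bulls that received dexamethasone together with clenbuterol against muscle of bulls that received dexamethasone alone. It rests on the arrays whose label names one of these treatments, 4 for each, which are 8 of the 12 arrays of the series. The other 4 arrays are untreated bulls, whose levels are given for reference. All animals were male cattle of 18 to 20 months, and the RNA came from the biceps brachii, taken after slaughter. Bulls of the dexamethasone group had 0.75 mg per head in the feed over 42 days. Bulls of the combination group had less dexamethasone and for a shorter time, 0.66 mg per head over 21 days. They also had clenbuterol over 28 days in amounts per head that went up from 2 mg (week 1) through 4 mg (week 2) to 6 mg (weeks 3 and 4). The groups therefore differ in clenbuterol and in the dose and length of dexamethasone, and the part of each in any difference below cannot be told apart. The study held 24 animals, 8 per group. The hybridised samples were those with the best RNA, so they are not a random draw. The labels name neither the breed nor the interval between the last dose and slaughter.

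Dexamethasone is a synthetic glucocorticoid. It binds the glucocorticoid receptor, which then switches on genes such as FKBP5, PER1, NFKBIA and TSC22D3, and in muscle it is known for restraining growth and favouring protein breakdown. Clenbuterol is a beta-adrenergic agonist. Beta-adrenergic signalling acts through cyclic AMP and protein kinase A, which induce early genes of the CREM and NR4A families and PPARGC1A, and long exposure is known to lower the response. Both compounds have been misused as growth promoters in cattle.

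Each array is a different animal. Levels are log2 signals relative to the 75th percentile of the array, so a level above 0 is brighter than 3 of 4 spots, and differences are the combination minus dexamethasone alone on the log2 scale. The file headers put dexamethasone replicates 1 to 3 and combination replicates 1 to 3 on the same scan day, called scan day 2, and the last replicate of each group on days of their own. Within scan day 2 each treated group lies on 1 slide. By the file headers no slide carries arrays of both treated groups, on that day or off it, so slide and group cannot be told apart. The mean signal of negative controls was 98.6 to 123 on the 7 arrays of scan day 2 and 59.5 to 73.1 on the other 5. The label of dexamethasone replicate 4 carries a slide code that differs from the slide in its file header. The main genes and lists below are therefore also given on scan day 2, which leaves out that array and combination replicate 4, and the day 2 value of each member of the drug-target lists is in its plot. Dexamethasone replicate 1 had the highest mean of its group for the matrix, fibroblast and leukocyte lists. It had the lowest for glycolysis, fast fibre genes and skeletal muscle fibre markers. All 14 skeletal muscle fibre markers were measured, and 13 were well above background on all 8 treated arrays. Across genes, the correlation between arrays was 0.952 to 0.981 within dexamethasone alone, 0.962 to 0.980 within the combination and 0.957 to 0.975 between the groups.

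Few genes separated the groups. Of 13668 genes tested, 2 were called higher in the combination at a limma adjusted p under 0.05, which is 0.0146% of genes. They were KCNMB4 and RASD1. None was called lower (0%), although 592 genes (4.33%) stood lower at an unadjusted limma p below 0.05, beside 915 (6.69%) that stood higher. The values of the 2 groups did not overlap for 346 genes that were higher (2.53%) and 380 that were lower (2.78%). On scan day 2, with 3 arrays against 3, no gene was called in either direction (0%), and the smallest limma adjusted p was 0.134. There, 848 genes (6.2%) stood higher and 449 (3.29%) lower by unadjusted limma p at the same limit, and 1205 (8.82%) and 936 (6.85%) did not overlap. The median difference over all genes was 0.02, with 52.3% above 0 and 47.7% below, and it was 0.04 on scan day 2. The number of calls rested on single arrays. Without dexamethasone replicate 1 it was 74, of which 63 were higher and 11 lower, and without combination replicate 2 it was 15, of which 12 were higher and 3 lower. It was 0 without dexamethasone replicate 2, 3 or 4, without combination replicate 4, or without untreated replicate 1, 2 or 4. It was 1 without combination replicate 3, and 3 without untreated replicate 3. Without combination replicate 1 it stayed at 2, but these were KCNMB4 and CD69, and RASD1 had a limma adjusted p of 0.0933.

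KCNMB4, a regulatory subunit of the large-conductance calcium-activated potassium channel, rose in the combination. Its probe, A_73_105437, takes its name from a human match. The 4 dexamethasone arrays read -5.20, -5.36, -5.09 and -5.36, and the combination arrays read -2.82, -3.67, -3.75 and -3.15. All combination arrays lay above all dexamethasone arrays, and the untreated arrays, at -2.39, -2.84, -3.17 and -2.57, lay close to the combination. The difference was 1.91 ± 0.23 (SE, n = 4 per group, 95% interval 1.40 to 2.41), a 3.75-fold higher signal, with a limma adjusted p of 0.0319. Here and below, each SE and interval of a difference is the moderated one of limma. Its spread comes from all 12 arrays, untreated ones included, or on scan day 2 from the 6 treated arrays. On dexamethasone alone the probe was well above background on 1 of 4 arrays, against 4 of 4 in the combination. The dim side of the fold is thus set by signals near background. With normexp background correction the difference was 0.70 and the limma adjusted p 0.210. A second probe of the gene gave 1.55, and was well above background on 0 dexamethasone and 2 combination arrays. On scan day 2 the difference was 1.80 ± 0.28, with a limma adjusted p of 0.311.

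RASD1, a small Ras-related protein known as an early target of dexamethasone, rose as well (probe A_73_114133). The dexamethasone arrays read 0.24, -0.52, -0.39 and 0.12 and the combination arrays 2.02, 1.21, 1.61 and 2.16. The lowest combination array lay well above the highest dexamethasone array, and the untreated arrays spanned 1.84 to 2.27. The difference was 1.89 ± 0.24 (SE, n = 4 per group; 95% interval 1.36 to 2.41), or 3.70-fold, with a limma adjusted p of 0.0319. The probe was well above background on every array. On scan day 2 the difference was 1.84 ± 0.30, with a limma adjusted p of 0.311. Without dexamethasone replicate 4, the array with the conflicting slide code, the limma adjusted p of both genes was 0.0714, at differences of 1.87 for KCNMB4 and 1.97 for RASD1.

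**Figure D1:**
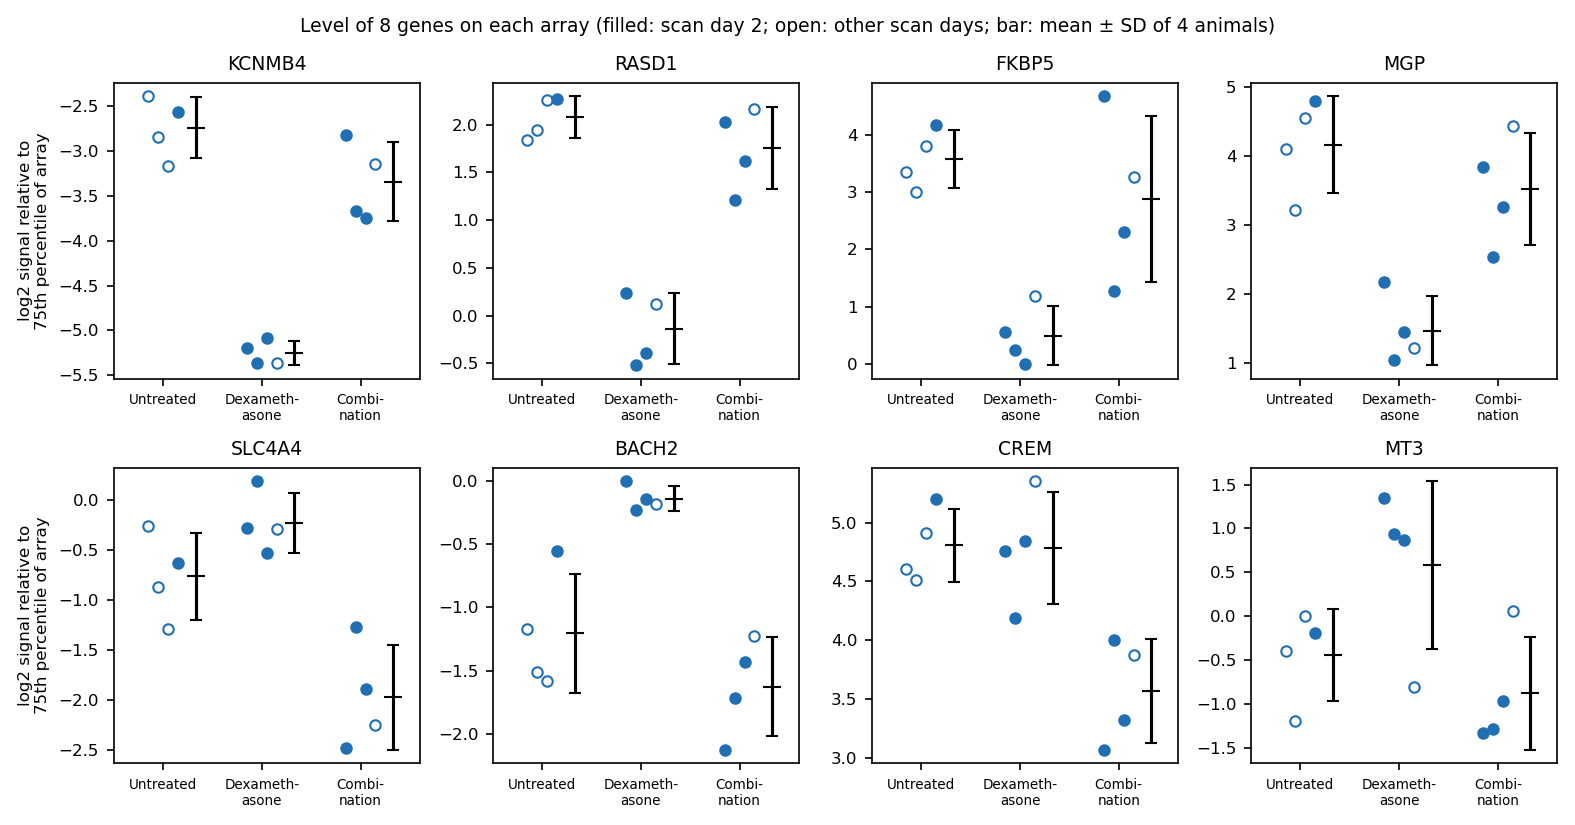
Level of 8 genes on each array (vertical axis, log2 signal relative to the 75th percentile of the array) in untreated bulls, dexamethasone alone and the combination (4 animals each). Filled points are arrays of scan day 2, open points other scan days, and bars the mean ± SD. KCNMB4 on dexamethasone alone sits between -5.36 and -5.09, below every other array, and MT3 on dexamethasone alone reads 0.86 to 1.35 on scan day 2 and -0.81 on the other array.

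The next genes above dexamethasone alone missed the threshold. KERA, which encodes the matrix proteoglycan keratocan, had the greatest difference among them at 3.49 ± 0.62 (limma adjusted p = 0.147). Its dexamethasone arrays read -4.16, -6.59, -4.50 and -7.04 and its combination arrays -2.92, -1.40, -2.21 and -1.81. The groups did not overlap, but the probe was well above background on only 1 of the 4 dexamethasone arrays. KRT25, a keratin of the hair root sheath, was not well above background on any dexamethasone array. With the main processing it was at least 3.13-fold higher in the combination (limma adjusted p = 0.143). Over the settings tried its log2 difference went down to 0.57, and that of KERA to 1.46. The filter on dim probes asked for 4 or more of the 12 arrays well above background. With 3 untreated arrays so, KRT25 passed it only through the combination arrays. Its other probe stayed near background throughout the treated arrays.

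FZD4, a Wnt receptor, read 0.80, 0.24, 0.12 and 0.56 on dexamethasone alone and 2.07, 1.03, 2.01 and 2.00 in the combination, a difference of 1.35 ± 0.24. ARRDC2, an arrestin-domain protein, read 2.09, 1.71, 1.56 and 2.15 against 3.73, 2.75, 3.11 and 4.11, a difference of 1.55 ± 0.29. Both had a limma adjusted p of 0.147, and in both every combination array was above every dexamethasone array. The remaining genes of this kind were INSL3, a peptide hormone related to insulin (1.39), ABI3BP, a matrix protein (1.34), MYL12B, a regulatory light chain of non-muscle myosin (1.29), and HPCAL1, a calcium sensor (0.98), all at a limma adjusted p of 0.147. INSL3 and MYL12B were well above background on 3 dexamethasone arrays each. Over the settings tried their differences went down to 0.60 and 0.64. Without dexamethasone replicate 1 the limma adjusted p fell under the threshold for KERA, FZD4, INSL3 and MYL12B (0.0369 each), KRT25 (0.0426) and ABI3BP (0.0484). Without combination replicate 2 it did so for FZD4 (0.0160), KRT25 (0.0328) and ARRDC2 (0.0412), and without untreated replicate 3 for KRT25 (0.0491).

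On the lower side, SLC4A4, a sodium bicarbonate cotransporter, had the smallest p. Its dexamethasone arrays read -0.27, 0.19, -0.52 and -0.29 and its combination arrays -2.48, -1.27, -1.89 and -2.24. The untreated arrays read -0.25, -0.87, -1.29 and -0.62, so the combination was the group that stood low. The difference was -1.75 ± 0.29 with a limma adjusted p of 0.143, and -1.68 ± 0.35 on scan day 2. A second probe gave -2.04, but was well above background on only 1 combination array. Without combination replicate 2 the limma adjusted p was 0.0190, and without dexamethasone replicate 1 it was 0.0426.

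BACH2, a transcriptional repressor best known from lymphocytes, was tight on dexamethasone alone at -0.01, -0.24, -0.14 and -0.19. The combination arrays read -2.12, -1.72, -1.43 and -1.23, overlapping the untreated range of -1.58 to -0.55. The difference was -1.48 ± 0.24 (limma adjusted p = 0.143) and -1.63 ± 0.23 on scan day 2. SYTL3, a synaptotagmin-like protein of vesicle transport, read -2.64, -1.81, -1.17 and -2.61 against -4.46, -4.25, -4.36 and -3.09, a difference of -1.98 ± 0.39. PIM1, a serine/threonine kinase, read 1.22, 1.64, 1.08 and 2.56 against -0.98, 0.44, -0.40 and 0.04, a difference of -1.85 ± 0.38. In both the groups did not overlap, and both missed the threshold at a limma adjusted p of 0.147.

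TFRC, the transferrin receptor that takes iron into cells, read 4.44, 4.88, 5.09 and 4.84 against 4.08, 3.80, 3.92 and 3.78. Its difference was -0.91 ± 0.18, and -0.99 by a second probe, and its untreated arrays, 4.28 to 4.94, lay with dexamethasone alone. NOCT, the rhythmic phosphatase nocturnin (-1.14), TCEAL1, a transcription elongation factor relative (-0.92), GARRE1, an effector of Rac (-0.83), PPP2CA, a catalytic subunit of protein phosphatase 2A (-0.89), and C3orf58 (-0.63) completed the list. Their limma adjusted p ran from 0.147 to 0.163. Without dexamethasone replicate 1 BACH2 (0.0484), SYTL3 (0.0484), TFRC (0.0369) and NOCT (0.0490) passed.

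Within scan day 2 the genes of smallest p on the lower side were MT3, PTPN3, BACH2, SYTL3 and GBP6. MT3, a metallothionein, read 1.35, 0.94 and 0.86 on the dexamethasone arrays and -1.33, -1.28 and -0.96 on the combination arrays. Off that day the order turned, at -0.81 for dexamethasone replicate 4 and 0.05 for combination replicate 4. The difference was -2.24 ± 0.22 on scan day 2 and -1.46 ± 0.46 over all arrays. PTPN3, a protein tyrosine phosphatase, read 0.13, 0.46 and 0.23 against -1.61, -1.53 and -1.77 on scan day 2, with dexamethasone replicate 4 at -1.53. Its difference was -1.91 ± 0.19 there and -1.52 ± 0.46 over all arrays. GBP6, a guanylate-binding protein induced by interferon, differed by -1.63 ± 0.26 on scan day 2 and by -0.45 ± 0.70 over all arrays, since combination replicate 4 read 1.63 against -2.0 to -1.27 on the other combination arrays.

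On the higher side of scan day 2 the smallest p belonged to RETN, the adipokine resistin (1.36 ± 0.18), NPAL2 (1.55 ± 0.23), C8H9orf152 (1.23 ± 0.19), KCNMB4 and KRT25, given above as a bound over all arrays. RETN, NPAL2 and C8H9orf152 were each well above background on 1 of the 4 dexamethasone arrays. RETN and C8H9orf152 were so on 2 untreated arrays each, and passed the filter on dim probes only through the combination arrays. Over all arrays the differences of RETN, NPAL2 and C8H9orf152 were 0.90, 1.13 and 0.59, and the groups overlapped in all of them. No gene of either direction passed the limma threshold on scan day 2.

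Among targets of the glucocorticoid receptor, levels lay mostly above those of dexamethasone alone. Of 32 measured, 23 were above and 9 below 0, with a median difference of 0.50 against 0.02 for all genes. RASD1 was the 1 member called, where 0.0146% of all genes were called higher. By unadjusted limma p 11 stood higher and 1 lower, against 6.69% and 4.33% of all genes, and 6 did not overlap, all higher, against 2.53%. The median was 0.38 on scan day 2, with 22 above and 10 below 0. The mean of the list per array ran from 0.62 to 0.98 on dexamethasone alone, from 0.91 to 1.58 in the combination and from 1.52 to 1.90 in untreated bulls.

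FKBP5, a co-chaperone that dampens the receptor, read 0.55, 0.25, -0.01 and 1.19 on dexamethasone alone and 4.66, 1.26, 2.31 and 3.26 in the combination. The lowest combination array lay just above the highest dexamethasone array, and the untreated arrays read 2.99 to 4.16. The difference was 2.38 ± 0.58 (95% interval 1.12 to 3.64), or 5.20-fold, and missed the threshold at a limma adjusted p of 0.174. It was 2.48 ± 0.79 on scan day 2. NFKBIA, the inhibitor of NF-kappa-B, read 1.57, 1.60, 1.17 and 1.61 against 3.47, 1.98, 2.84 and 3.39, a difference of 1.43 ± 0.29 (limma adjusted p = 0.147). Without combination replicate 2 it was 1.75, with a limma adjusted p of 0.0160.

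PER1, a clock gene induced by the receptor and also listed as a cyclic AMP target, read 3.68, 3.23, 2.92 and 5.0 against 5.70, 4.49, 5.34 and 5.81. Dexamethasone replicate 4 lay inside the combination range, and the difference was 1.63 ± 0.41 over all arrays and 1.90 ± 0.36 on scan day 2. FOXO3, a transcription factor of muscle breakdown, read 2.59, 2.27, 2.32 and 2.04 against 3.24, 3.02, 2.74 and 3.26. KLF9, a transcription factor, read 2.90, 2.35, 2.17 and 2.44 against 3.66, 3.03, 2.94 and 3.14. Their differences, 0.76 ± 0.17 and 0.73 ± 0.21, came without overlap and missed the threshold (limma adjusted p of 0.163 and 0.226). CRISPLD2, a secreted protein, differed by 1.22 ± 0.33, but its second probe gave -0.04.

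For other genes tied to the receptor the interval of the difference spanned 0. PDK4, the kinase that shuts pyruvate dehydrogenase, differed by 0.19 (95% interval -0.58 to 0.95) and GLUL, glutamine synthetase, by 0.33 (-0.19 to 0.85). The receptor itself, NR3C1, differed by -0.26 (-0.80 to 0.29). TSC22D3, a leucine zipper protein induced by glucocorticoids, was well above background on 2 of 4 dexamethasone arrays and on no combination array, so its level in the combination is only a bound. The 95% interval of its difference, -1.24 to 0.10, spanned 0 (limma adjusted p = 0.544). SLC19A2, a thiamine transporter, was the member lower at the unadjusted limit, at -1.26 ± 0.35, and is named because of that value. Without dexamethasone replicate 1 its limma adjusted p was 0.0369.

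**Figure D2:**
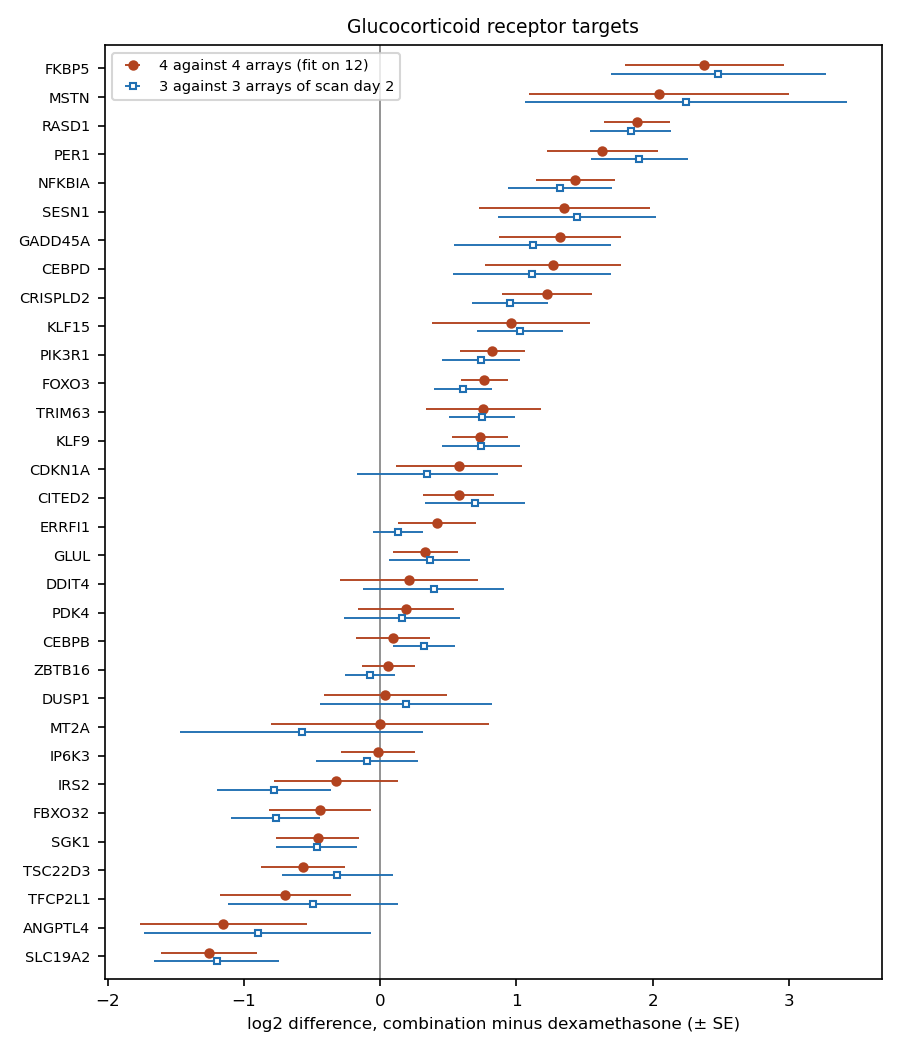
Difference of each of the 32 measured glucocorticoid receptor targets, combination minus dexamethasone alone (horizontal axis, log2, ± SE). Filled circles are all arrays and open squares the 3 against 3 arrays of scan day 2. FKBP5 is at the top with 2.38, and SLC19A2 at the bottom with -1.26.

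Targets of cyclic AMP, the messenger of beta-adrenergic signalling, lay mostly on the other side. Of 31 measured, 8 were above and 23 below 0, with a median of -0.43, and -0.44 on scan day 2. None was called. At an unadjusted limma p under 0.05, 2 were higher and 4 lower, and 1, on the lower side, did not overlap. Among all genes 6.69% were higher and 4.33% lower at that limit and 2.78% were lower without overlap, so the higher count and the count without overlap are near the share of all genes. List means per array overlapped widely, from 1.04 to 2.08 on dexamethasone alone and from 0.76 to 1.55 in the combination.

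The member without overlap was CREM, a transcription factor gene whose ICER form is induced by cyclic AMP and represses it in turn. It read 4.75, 4.19, 4.84 and 5.35 on dexamethasone alone and 3.07, 4.00, 3.32 and 3.87 in the combination, with untreated bulls at 4.51 to 5.20. The difference was -1.22 ± 0.28 (limma adjusted p = 0.163), and its other probes gave -1.17 and -0.10. PDE4D, a phosphodiesterase that degrades cyclic AMP, read -0.16, 1.49, 0.37 and 0.55 against -0.44, -0.09, -0.66 and -0.44, a difference of -0.97 ± 0.29. SIK2, a kinase inhibited by protein kinase A, differed by -1.0 ± 0.31, and by -0.56 by a second probe.

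The orphan nuclear receptors of the NR4A family varied widely between arrays. NR4A3 read -1.85, 1.48, 3.68 and 3.49 against -3.53, -0.90, -3.07 and 3.74, a difference of -2.64 ± 1.62. NR4A2 differed by -1.86 ± 0.75 (95% interval -3.49 to -0.22; limma adjusted p = 0.393), and by -1.24 ± 0.88 on scan day 2. NR4A1 differed by -0.22 (95% interval -1.39 to 0.94). PPARGC1A, the coactivator of mitochondrial genes, read 3.59, 5.63, 5.99 and 6.88 against 2.81, 4.42, 2.52 and 5.98, a difference of -1.59 ± 0.84, and -1.87 by a second probe. In each of these 4 genes the groups overlapped.

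Of 27 receptors and signalling parts for the drugs, 16 were above and 11 below 0 with a median of 0.06 (0.02 on scan day 2), and none was called. PKIA, an inhibitor of protein kinase A, read 5.66, 5.65, 5.72 and 5.77 against 5.23, 5.17, 5.29 and 5.0. It differed by -0.53 ± 0.20 without overlap. ADCY5, an adenylyl cyclase, differed by 0.76 ± 0.30 with overlap, and by 0.66 ± 0.42 on scan day 2. PDE4B (0.45 ± 0.47), UCP3, a mitochondrial carrier (0.24 ± 0.58), RGS16, a regulator of G protein signalling (-0.52 ± 0.43), and AMPD3, an AMP deaminase (-0.27 ± 0.31), overlapped between the groups.

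**Figure D3:**
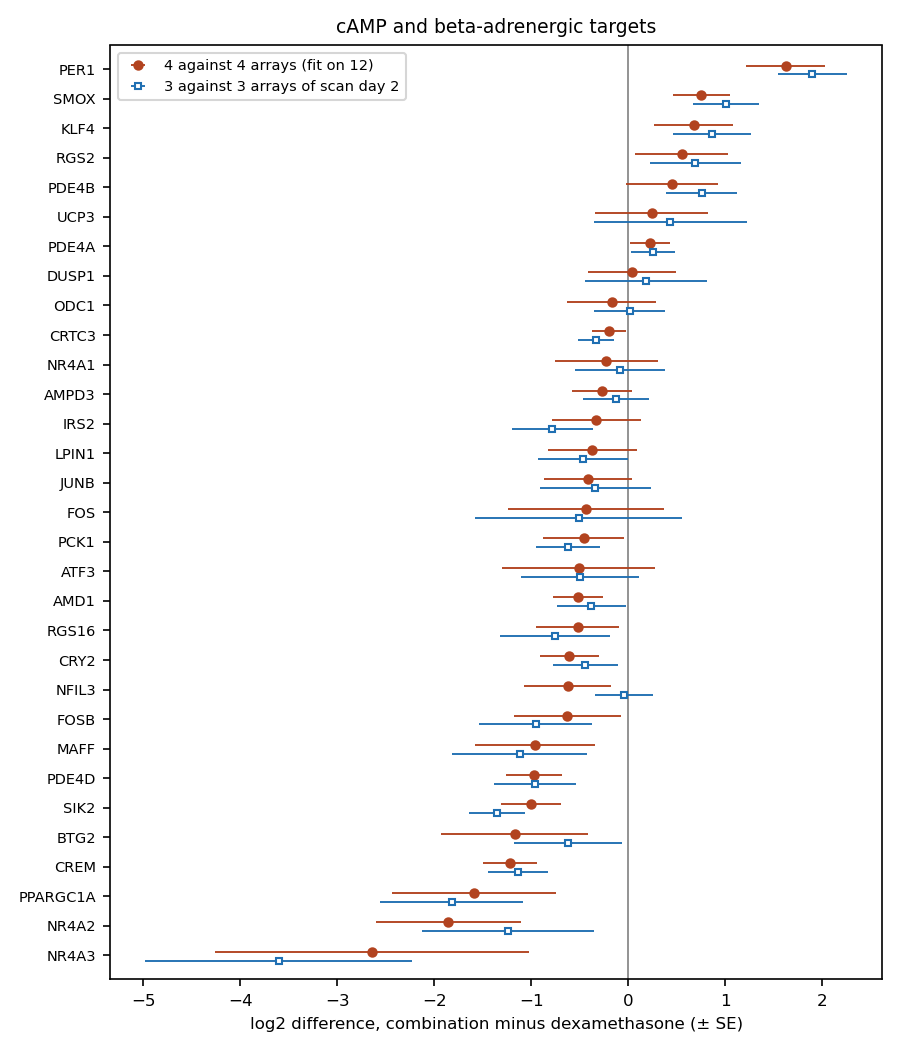
Difference of each of the 31 measured cyclic AMP and beta-adrenergic targets, combination minus dexamethasone alone (horizontal axis, log2, ± SE). Filled circles are all arrays and open squares scan day 2. PER1 is at the top with 1.63 and NR4A3 at the bottom with -2.64 and the widest error.

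Over all arrays, collagens and other matrix genes gave the highest median of the 36 lists. Of 39 measured, 38 were above 0, with a median of 0.76. None was called, 14 were higher at an unadjusted limma p under 0.05 (6.69% of all genes) and 4 were higher without overlap (2.53% of all genes). On scan day 2 the median was 0.38, with 37 above 0, below the medians of satellite cell markers (0.57) and leukocyte markers (0.39). In bulk muscle, fewer cells of a type and less RNA per cell cannot be told apart. MGP, the matrix Gla protein that restrains calcification, read 2.18, 1.03, 1.44 and 1.22 on dexamethasone alone and 3.84, 2.54, 3.26 and 4.44 in the combination. The groups did not overlap and untreated bulls read 3.21 to 4.80, with a difference of 2.05 ± 0.43 (limma adjusted p = 0.149), and 1.66 ± 0.42 on scan day 2.

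SPARC, a collagen-binding glycoprotein, read 4.83, 3.91, 4.09 and 3.28 against 4.71, 5.26, 5.32 and 5.05, a difference of 1.06 ± 0.27. Dexamethasone replicate 1 alone reached the combination range, and without it the difference was 1.32 with a limma adjusted p of 0.0369. COL18A1, a basement membrane collagen (1.03 ± 0.27), likewise passed without that array (0.0426). COL15A1, another basement membrane collagen, read 0.61, 0.12, 0.62 and 0.63 against 1.26, 1.31, 1.46 and 0.91, a difference of 0.74 ± 0.20 without overlap. The differences of the fibrillar collagens were lower on scan day 2, which leaves out the last replicate of each group, so scan day and animal cannot be told apart. COL1A1 differed by 1.09 ± 0.53 over all arrays and 0.52 ± 0.58 on scan day 2, and COL3A1 by 0.72 ± 0.51 and -0.07 ± 0.44.

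Fibroblast markers lay on the same side as the matrix genes, and 5 of them are on both lists. All 14 measured of 15 were above 0, with a median of 0.67, and 10 were above 0 with a median of 0.32 on scan day 2. None was called and 3 were higher at an unadjusted limma p under 0.05 (6.69% of all genes): SFRP2, a secreted Wnt antagonist (1.41 ± 0.41), DCN, the proteoglycan decorin (0.79 ± 0.27, and 0.26 by a second probe), and CD34 (0.46 ± 0.20, named because of its value). The defining marker PDGFRA was well above background on all dexamethasone arrays and differed by 0.02 ± 0.28. Summed over the markers, the signal relative to the 75th percentile was 16.7 to 46.3 on dexamethasone alone, 31.5 to 58 in the combination and 51.4 to 67.1 in untreated bulls. Dexamethasone replicate 1 had the highest fibroblast mean of its group, 0.58, inside the combination range of -0.23 to 0.79. The part of fibroblast content in the matrix differences was not tested.

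All 43 measured subunits and carriers of oxidative phosphorylation were below 0, with a median of -0.28 and a range of -0.73 to -0.04, and 40 of 43 were below 0 on scan day 2 with a median of -0.22. None was called, 3 were lower at an unadjusted limma p under 0.05 and 1 was lower without overlap. These counts are near the shares of all genes, 4.33% and 2.78%. List means per array overlapped, at 4.64 to 5.18 on dexamethasone alone and 4.48 to 4.96 in the combination. The member without overlap was COX6C, a subunit of cytochrome c oxidase, at 6.01, 5.99, 6.12 and 6.21 against 5.63, 5.55, 5.94 and 5.71, a difference of -0.37 ± 0.13. CYCS, cytochrome c, differed by -0.73 ± 0.23.

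In the citrate cycle 16 of 18 were below 0 with a median of -0.37, and 3 were lower at the unadjusted limit (4.33% of all genes). The median was -0.23 on scan day 2, with 14 below 0. SUCLG2, a subunit of succinyl-CoA synthetase, read 4.05, 4.26, 4.39 and 3.93 against 3.84, 3.61, 3.79 and 3.53, a difference of -0.47 ± 0.19 without overlap. MDH1, the cytosolic malate dehydrogenase, differed by -0.47 ± 0.20. Fatty acid uptake and oxidation had 22 of 33 below 0 with a median of -0.15, among them ACSL1, which activates long-chain fatty acids, at -0.62 ± 0.21 without overlap. Glycolysis and glycogen genes were on the other side for 19 of 28, with a median of 0.10 and 0.24 on scan day 2. The mean of this list was 4.45 on dexamethasone replicate 1, against 5.14 to 5.61 on the other dexamethasone arrays. Over the settings tried, its median ran from -0.17 to 0.27. PFKFB3, which makes the activator of phosphofructokinase, differed by -1.45 ± 0.59, against the direction of its list.

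Heat shock proteins and co-chaperones were above 0 for 26 of 33 members, with a median of 0.25 and 0.19 on scan day 2. None was called, 10 stood higher and 0 lower by unadjusted limma p at 0.05 (6.69% and 4.33% of all genes), and 3 were higher without overlap (2.53% of all genes). FKBP4, a co-chaperone of steroid receptors, read 4.51, 4.92, 4.82 and 4.75 against 5.13, 5.49, 5.48 and 4.98, a difference of 0.52 ± 0.16. HSPA8, the constitutive cytosolic chaperone, read 5.18, 5.60, 5.38 and 5.0 against 5.82, 5.84, 6.03 and 5.64, a difference of 0.55 ± 0.19 (named because its groups did not overlap). DNAJA1, a co-chaperone, differed by 0.86 ± 0.24 and STIP1, which links the main chaperones, by 0.58 ± 0.19.

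HSPA1A, the inducible chaperone, read 8.01, 6.63, 7.34 and 7.69 against 7.58, 8.35, 8.68 and 8.45, with untreated bulls at 6.07 to 7.15. Its difference was 0.85 ± 0.34, and its other probes gave 1.62 and 1.64, the latter well above background on 1 dexamethasone array. HSPA1L differed by 1.45 ± 0.32 and was well above background on 1 untreated, 1 dexamethasone and 4 combination arrays. It passed the filter on dim probes only through the combination arrays, where it read high. It is counted among the members of its list that stood higher and those without overlap. Over the settings tried its difference went down to 0.33. HSPA1A and HSPA1L are related in sequence, and whether their probes share signal was not tested.

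Genes of the oxidative stress response, by contrast, were below 0 for 21 of 22 members, with a median of -0.20 and -0.26 on scan day 2. SOD2, the mitochondrial superoxide dismutase, read 1.99, 1.81, 1.85 and 1.34 against 1.20, 0.98, 1.09 and 0.58. The groups did not overlap and untreated bulls read 1.29 to 1.70, with a difference of -0.79 ± 0.19 (limma adjusted p = 0.172) and -0.79 ± 0.18 on scan day 2.

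**Figure D4:**
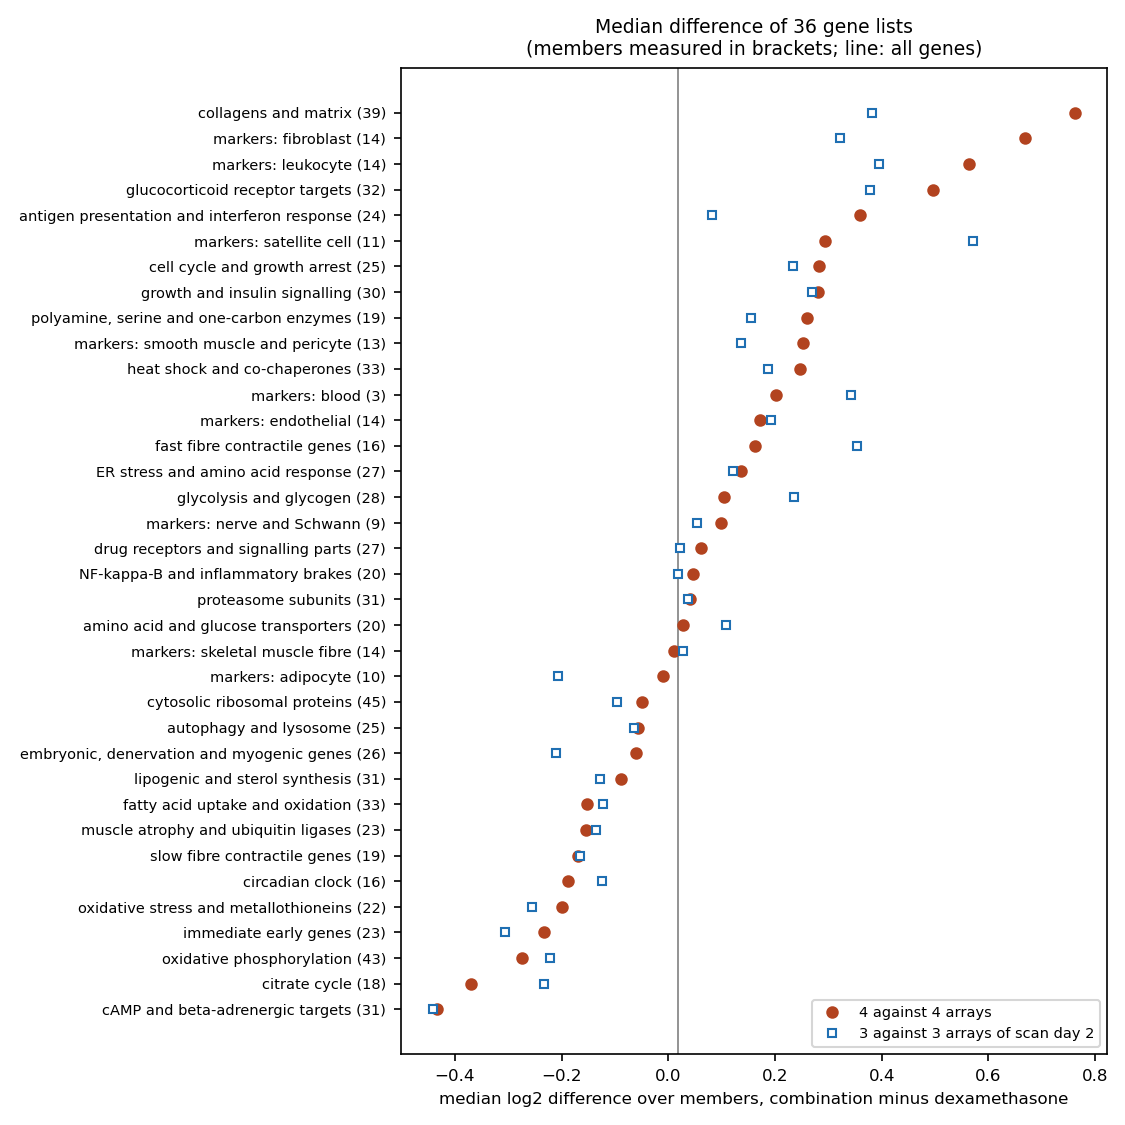
Median log2 difference over the members of 36 gene lists, combination minus dexamethasone alone (horizontal axis), with the number of members measured in brackets. Filled circles are all arrays, open squares scan day 2, and the line the median of all genes, 0.02. Collagens and matrix are at the top with 0.76 and cyclic AMP targets at the bottom with -0.43.

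Growth factors were among the genes without overlap. IGF1, insulin-like growth factor 1, read -2.71, -4.38, -3.05 and -4.56 on dexamethasone alone and -2.35, -2.26, -2.34 and -2.19 in the combination. IGF2 read 1.40, 2.77, 3.52 and 2.93 against 3.96, 3.81, 3.98 and 3.65. In both the combination arrays were tight and above every dexamethasone array, with differences of 1.39 ± 0.44 (limma adjusted p = 0.281) and 1.19 ± 0.38 (0.288). A second IGF2 probe, well above background on 1 dexamethasone array, gave 0.08. The list of growth and insulin signalling had 21 of 30 above 0 with a median of 0.28. On scan day 2 it had 17 above and 13 below 0, with a median of 0.27. The list mixes promoters and inhibitors of growth, and the inhibitors MSTN (2.05) and SESN2 (0.89) are among those above 0. It also includes PIK3R1, a regulatory subunit of phosphoinositide 3-kinase, at 0.82 ± 0.24.

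MSTN, myostatin, the inhibitor of muscle growth, read -6.88, -5.92, -5.67 and -4.25 against -2.82, -6.88, -2.04 and -2.78. The difference was 2.05, with a 95% interval of -0.03 to 4.13, since combination replicate 2 read as low as the lowest dexamethasone array. Its probe was well above background on 1 dexamethasone array and 3 combination arrays. The main ubiquitin ligases of atrophy overlapped between the groups, with TRIM63 (MuRF1) at 0.76 (95% interval -0.16 to 1.67) and FBXO32 (atrogin-1) at -0.44 (-1.26 to 0.37). The atrophy list as a whole had 9 above and 14 below 0, with a median of -0.15.

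Serine, polyamine and one-carbon enzymes were above 0 for 13 of 19 with a median of 0.26, and 0.15 on scan day 2. PHGDH, the first enzyme of serine synthesis, read -1.78, -1.71, -2.20 and -2.93 against -1.02, -1.05, -1.65 and -1.32, without overlap, at 0.90 ± 0.26. PSPH, the last enzyme of that path, differed by 0.98 ± 0.29, and SMOX, spermine oxidase, by 0.75 ± 0.29. In the cell cycle list 18 of 25 were above 0 with a median of 0.28, and 7 were higher at the unadjusted limma limit (6.69% of all genes). CCND3, cyclin D3, read 0.38, 0.16, 0.24 and 0.10 against 1.09, 1.09, 0.74 and 1.05, a difference of 0.77 ± 0.15 without overlap (limma adjusted p = 0.147). TOP2A, a topoisomerase of dividing cells, read -2.81, -5.81, -5.34 and -4.85 against -3.39, -1.67, -2.31 and -2.53, a difference of 2.23 ± 0.58. Without dexamethasone replicate 1, the highest of its group, it was 2.86 with a limma adjusted p of 0.0312. The TOP2A probe was well above background on 2 of the 4 dexamethasone arrays. CDC20, which drives the end of mitosis, and RRM2, a subunit of ribonucleotide reductase, differed by 1.62 ± 0.53 and 1.58 ± 0.53 and are among the 7. CDC20 was well above background on 1 untreated, 1 dexamethasone and 2 combination arrays, and RRM2 on 2, 1 and 3. Both passed the filter on dim probes only through the combination arrays, where they read high.

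Antigen presentation and interferon genes were above 0 for 20 of 24, with a median of 0.36 that was 0.08 on scan day 2. CD74, the invariant chain of class II molecules, read -0.68, -0.15, -0.15 and -0.88 against 0.08, 0.88, 0.86 and 1.35, at 1.26 ± 0.28 without overlap (limma adjusted p = 0.163). BOLA-DQA1, a class II chain, differed by 1.16 ± 0.41 and TAP1, a peptide transporter, by 1.02 ± 0.40. Leukocyte markers were above 0 for 10 of 14 measured of 20, with a median of 0.56 and 0.39 on scan day 2. Only 5 of the 14 were well above background on all 8 treated arrays. The summed signal of the 14 was 1.61 to 5.44 on dexamethasone alone, 2.40 to 4.08 in the combination and 4.08 to 5.84 in untreated bulls. CD3E, of the T cell receptor complex, read -4.74, -4.58, -5.45 and -4.54 against -4.29, -3.30, -3.59 and -3.14, at 1.24 ± 0.31 without overlap. LCP1, a leukocyte actin-bundling protein, differed by 1.44 ± 0.59 and was well above background on 2 of the 4 dexamethasone arrays. PTPRC, the common leukocyte antigen, differed by 0.46 ± 0.31. Combination replicate 4 had the highest mean of the antigen presentation list, 0.49, and of the leukocyte markers in its group, -2.54. Whether leukocyte content had a part in these differences was not tested.

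**Figure D5:**
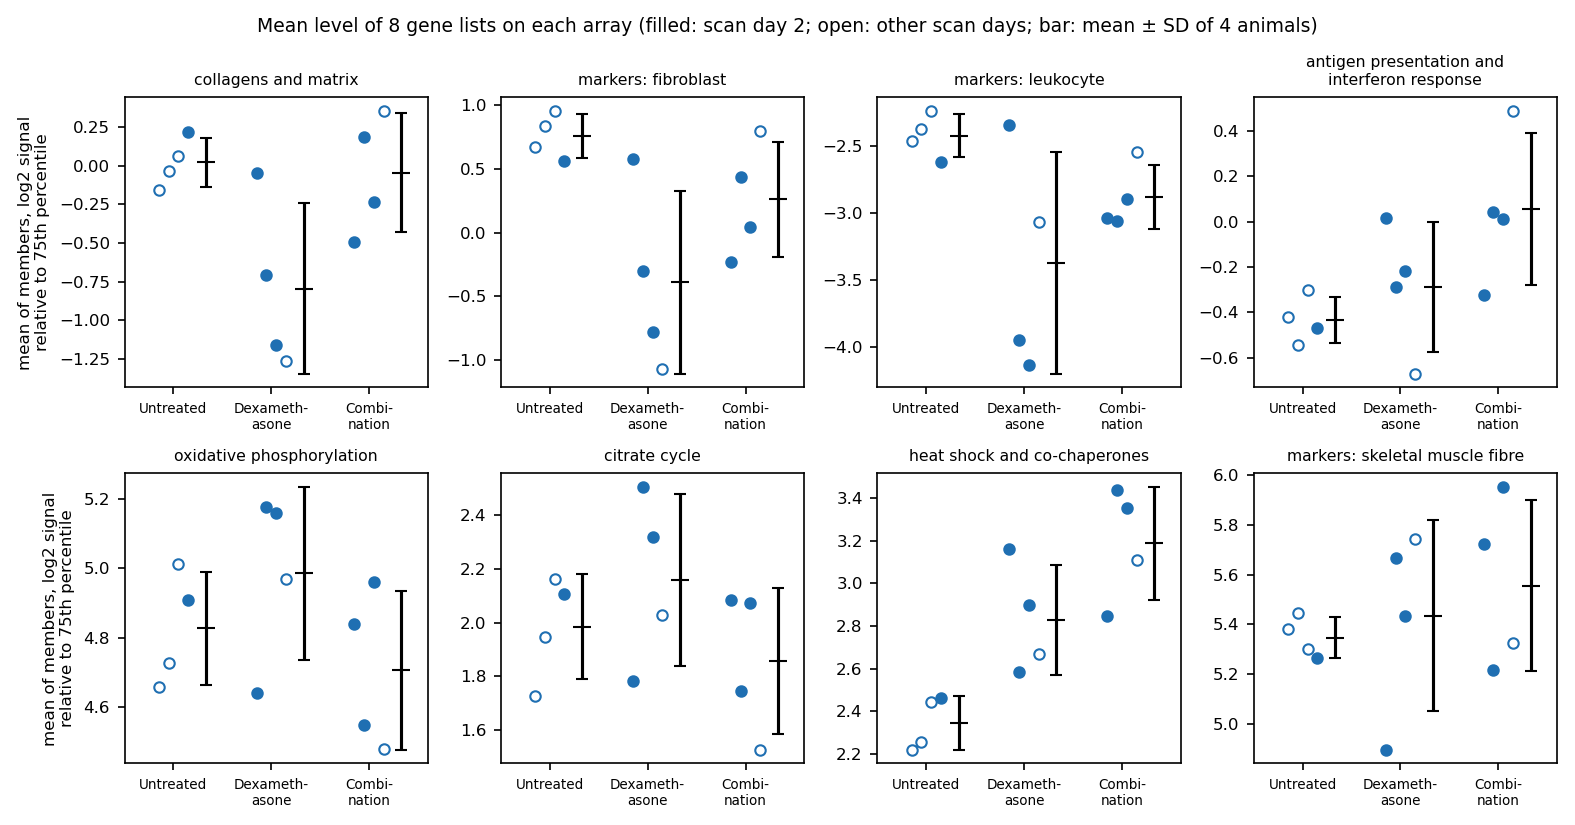
Mean level of the members of 8 gene lists on each array (vertical axis, log2 signal relative to the 75th percentile) in untreated bulls, dexamethasone alone and the combination. Filled points are scan day 2, open points other days, and bars the mean ± SD of 4 animals. The treated groups overlap in every panel, and dexamethasone replicate 1, the leftmost point of its group, lies highest of that group for matrix (-0.05), fibroblast (0.58) and leukocyte (-2.34) genes.

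No contractile gene was called. Skeletal muscle fibre markers had a median of 0.01, with 7 above and 7 below 0. MYH1, the fast IIx myosin heavy chain, differed by 0.00 (95% interval -0.79 to 0.78) and MYH7, the slow myosin heavy chain, by -0.12 (-0.49 to 0.26). Myosin heavy chains are alike in sequence, so their probes may share signal, and no probe carried the name MYH2. Fast fibre genes had a median of 0.16 (11 of 16 above 0) and slow fibre genes of -0.17 (14 of 19 below 0). Within scan day 2 these medians were 0.35 and -0.17. The fast fibre mean was 4.24 on dexamethasone replicate 1, against 4.97 to 5.85 on the other dexamethasone arrays. Over the settings tried, the fast fibre median ran from -0.15 to 0.37. PVALB, the calcium buffer parvalbumin of fast fibres, read -2.96, 2.08, -2.46 and 1.73 against 1.72, 1.5, 2.56 and 3.95, a difference of 2.83 ± 1.28.

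Among myogenic genes, MYOD1, the regulator of muscle commitment, read 2.65, 3.57, 3.16 and 4.27 on dexamethasone alone and 1.87, 2.47, 2.74 and 2.20 in the combination, at -1.09 ± 0.31 (limma adjusted p = 0.229), with untreated bulls at 1.80 to 2.33. The list of embryonic, denervation and myogenic genes had a median of -0.06, and -0.21 on scan day 2. At the unadjusted limma limit 3 were higher and 5 lower, against 6.69% and 4.33% of all genes. Satellite cell markers were above 0 for 8 of 11 measured of 13, with a median of 0.29. Within scan day 2 it was 0.57, with 9 above 0, the highest of the 36 lists on that day. Members ranged from -0.90 to 1.29 over all arrays and none was called. Without overlap, 1 was higher and 1 lower, against 2.53% and 2.78% of all genes. The higher one was HEYL, a Notch target, which read -0.32, -0.72, -0.07 and -0.26 against 0.97, 0.67, 0.61 and 0.24, at 0.96 ± 0.23. The lower one did not reach an unadjusted limma p under 0.05, and its values are not given here. CDH15, M-cadherin, differed by 0.50 ± 0.17. PAX7, the defining marker of satellite cells, did not pass the filter on dim probes.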

How the data were processed

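Per the labels, Trizol-extracted total RNA of 12 bulls was amplified, labelled with Cy3 and hybridised to 1-colour Agilent arrays (42990 spots other than controls, 21475 probes). The scanner files the authors deposited hold intensity on a linear scale made, per the file headers, by Agilent Feature Extraction 9.5.1.1, which detrended each array spatially and multiplicatively. A value table that the authors deposited, of unstated making, served as an alternative. It holds linear intensity in the order of the scanner signal (Spearman correlation of 0.999996 or more on each array), with medians of 137.25 to 181.167 and 1 common maximum. Here, log2 processed signal minus each array's 75th percentile was taken, outlier spots (1 to 7 per array) were dropped, saturated spots kept and spots averaged per probe. A probe had to be well above background on 4 or more of the 12 arrays (14703 were), and the brightest stood for a gene, leaving 13668 genes, 11219 with a symbol. Names came from a RefSeq gene table by gene number (9993 probes), accession (3410) or symbol (383), or from the human match (3511), and 4178 kept the file's name. Of 9417 probes with both a table and a human name, 83.7% matched. limma 3.58.1 in R 4.3.3 fitted 3 group means to all 12 arrays, with eBayes and Benjamini-Hochberg adjustment, two-sided. A second fit used the 6 treated arrays of scan day 2. The fit was tested on simulated data. Where only a lower bound of a fold is given, it takes, for the dim group, the higher of the probe's value and the lowest signal well above background on each array. The number of arrays limits the precision. Genes were named by rule: up to 10 per direction called, or of smallest p without overlap, 5 per direction on scan day 2, up to 4 per list, and fixed genes. Others are said to be named for their values. Members and lists were chosen with earlier results of these data known. Lists are described by counts, medians, ranges, means per array and, for some marker lists, summed signals, and no test was run on them.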

Additional observations from a re-analysis of the deposited data

Results flagged for a closer look

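Groups of 4 arrays were searched for 1 array far from the other 3, over 292 sets of values (the genes named above and the list means, in each treated group). The gap passed Dixon's limit in 18 sets (6.16%), where chance alone gives about 5%, so the share is near that of chance and the sets below are given as values only.

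On dexamethasone alone, replicate 1 stood high in INSL3 (-4.20) and in the mean of embryonic, denervation and myogenic genes (1.26, against -0.23 to -0.04 on the others). Replicate 2 stood low in COL15A1 (0.12) and high in the mean of adipocyte markers (-0.68, against -2.20 to -1.99). Replicate 3 stood low in NFKBIA (1.17) and TAP1 (-3.18). Replicate 4, the array with the conflicting slide code, stood low in PTPN3 (-1.53) and high in C8H9orf152 (-4.00) and in the mean of circadian clock genes (0.99, against 0.49 to 0.54).

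In the combination, replicate 2 stood low in FZD4 (1.03), ADCY5 (-4.09), MSTN (-6.88), SESN2, a stress-induced inhibitor of growth signalling (-1.59), and the mean of growth and insulin signalling genes (-0.43), and high in the mean of proteasome subunits (3.45). Replicate 3 stood low in CCND3 (0.74). Replicate 4 stood high in SYTL3 (-3.09) and in MYLK, a myosin light chain kinase of smooth muscle (1.83).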

How the results depend on the processing

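The count of 2 called genes was 0 with only the 8 treated arrays, on scan day 2 alone, with scan day 2 as a block, with slide as a random block, with quantile normalization, with the authors' value table, without the filter on dim probes, or with the mean of a gene's probes. It was 1 with normexp background or with probes well above background on all 12 arrays, 2 with eBayes trend and robust settings and 3 with array weights. Leaving out 1 array gave 0 to 74. The count of 0 on scan day 2 was 2 (MT3 and PTPN3, both lower) with probes well above background on all 12 arrays, and 0 to 2 when 1 array was left out (2, BARX2 and NPR3, without combination replicate 2). It was 0 under the other settings tried. KCNMB4 stayed above 0 in all its settings (0.70 to 2.04), as did RASD1 (1.75 to 2.07) and FKBP5 (1.78 to 2.92). Of 2613 values of 110 named genes, 33 lost a call (all KCNMB4 or RASD1), 22 gained one, and 15, in 5 uncalled genes, had the other sign. Medians of 14 of 36 lists took the other sign in 29 of 864 values, and 4 moved by more than the spread between arrays. No scaling moved the median of all genes by more than 0.1. No paired analysis was possible because every array is a different animal and the replicate numbers, given here in accession order, pair no samples. The number of arrays and the signal over background limit what can be seen.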

Other observations

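Several lists lay near the median of all genes over all arrays. Proteasome subunits had a median difference of 0.04 over 31 members, cytosolic ribosomal proteins -0.05 over 45, autophagy and lysosome genes -0.06 over 25, and NF-kappa-B genes and inflammatory brakes 0.05 over 20. Amino acid and glucose transporters had a median of 0.03 over 20, and of 0.11 with 15 above 0 on scan day 2. SLC16A1, the lactate carrier MCT1, read 0.90, 1.05, 1.69 and 0.91 on dexamethasone alone and 0.42, 0.57, 0.29 and 0.13 in the combination, a difference of -0.79 ± 0.25 without overlap (limma adjusted p = 0.289). Immediate early genes had a median of -0.23 over 23, although KLF6, a zinc-finger factor, read 2.87, 2.37, 2.20 and 2.85 against 3.07, 3.23, 2.93 and 3.60, a difference of 0.64 ± 0.22 without overlap. Clock genes had a median of -0.19, with 12 of 16 below 0, and of -0.12 on scan day 2. CRY1, a repressor of the clock, differed by -0.39 ± 0.18 without overlap.

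Genes of the ER stress and amino acid response were above 0 for 21 of 27, with a median of 0.14, and lipogenic and sterol genes were below 0 for 19 of 31, with a median of -0.09. LSS, lanosterol synthase, differed by 1.18 ± 0.51 and by 0.29 by a second probe. Among markers of other cells, endothelial genes had a median of 0.17 (PLVAP 0.58 ± 0.21), smooth muscle and pericyte genes 0.25, adipocyte genes -0.01, nerve and Schwann cell genes 0.10 and blood genes 0.20 over 3 members measured. On scan day 2 the medians were 0.14 for smooth muscle and pericyte, -0.21 for adipocyte, 0.05 for nerve and Schwann cell and 0.34 for blood genes. CIDEA, a lipid droplet protein on the adipocyte list, read 0.10, -0.52, 0.00 and -0.44 against -1.43, -0.81, -1.68 and -1.17, a difference of -1.06 ± 0.31 without overlap. EIF4B, a translation initiation factor, read -2.40, -3.79, -5.36 and -4.44 on dexamethasone alone, -5.05, -6.02, -5.22 and -4.63 in the combination and -1.68 to -1.25 in untreated bulls. Its probe was well above background on 3 dexamethasone arrays and 1 combination array. LIPG, endothelial lipase, was well above background on 1 of 4 arrays of each treated group and on all 4 untreated arrays.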
